A study of Bos taurus with 12 samples.

Results

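The 78 genes for mitochondrial ribosomal proteins described here are all the entries of a bovine gene count table whose name begins with MRPL or MRPS followed by a number, 78 of 29240 genes. The rule goes by name and uses no measured value, but the set was chosen for description with earlier results of these data known. All 78 passed the filter on low counts that left 16300 genes for testing. By textbook assignment 29 encode large subunit proteins that have a bacterial counterpart, 22 large subunit proteins specific to mitochondria, 16 small subunit proteins with a bacterial counterpart and 11 small subunit proteins specific to mitochondria. The products of MRPS30 and MRPS18A belong to the large subunit in spite of their names, and that of MRPS36 is now known as a part of the 2-oxoglutarate dehydrogenase complex. All members were kept because the rule is by name.

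Mitochondrial ribosomes translate the few messenger RNAs that the mitochondrial genome encodes, all of them for membrane subunits of the respiratory chain and the ATP synthase. Their ribosomal RNA comes from mitochondrial DNA, whereas every protein is encoded in the nucleus, made in the cytosol and imported. In fat cells and their precursors mitochondrial activity supports lipid synthesis and, during differentiation, the growth of oxidative capacity.

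RNA was sequenced from cattle (Bos taurus) precursor adipocytes, the committed progenitors of fat cells, in 4 groups of 3 libraries, each collected 48 h after transfection. An interference experiment compared si cells with si_NC cells, where NC is the negative control and the labels name no target for si. An overexpression experiment compared cells given pcDNA3.1-HGFAC (OE), a plasmid carrying the coding region of HGFAC, the gene of a serine protease that activates hepatocyte growth factor, with cells given pcDNA3.1-NC (OE_NC). All cells were therefore transfected, and no untransfected group was analysed here. The labels do not say that replicates came from separate cultures, so p-values measure only the spread between these libraries, which may be technical.

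Counts in genes summed to between 28.9 and 42.7 M per library. Of 10 stromal and precursor markers, 8 averaged between 16 CPM (THY1) and 7207 CPM (COL1A2; counts scaled to the library total) over the 12 libraries, while CD34 (0.0286 CPM) and DLK1 (0.0699 CPM) were near 0. The markers of other cells ran from 0.0600 CPM (ADIPOQ) to 7.08 CPM (FABP4) for mature fat cells, from 0.0283 CPM (PTPRC) to 4.40 CPM (CD68) for immune cells, from 0.317 CPM (CDH5) to 1.47 CPM (VWF) for endothelium and from 0.0329 CPM (EPCAM) to 1.91 CPM (KRT19) for epithelium. Of the muscle genes, DES averaged 569 CPM and ACTA1 12.0 CPM, with MYOD1 at 0.0433 and MYOG at 0.00576 CPM. HGFAC stood at 190, 156 and 138 CPM in OE against 0.273 to 0.526 CPM in OE_NC. In si it was 0.843, 0.525 and 0.605 CPM against 0.818, 0.738 and 0.935 CPM in si_NC, with overlapping groups (log2 change -0.35, edgeR adjusted p = 0.512).

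In all, 3 libraries stood apart from their replicates for the members. Replicate 3 of si held the lowest value of its group for 66 of the 78 members (84.6 percent, against 41.7 percent of all genes tested). Replicate 2 of si_NC was the lowest of its group for 69 members (88.5 against 39.2 percent). Replicate 1 of OE_NC was the highest of its group for 77 members (98.7 against 38.7 percent). The genes for cytosolic ribosomal proteins did the same in these libraries, for 81, 79 and 82 of the 82 tested. The median member deviated from its own mean over the 12 libraries by -0.32, -0.21 and 0.40 (log2) in the 3 libraries, and the median of all genes by 0.02 or less in size. After the trend on gene length was removed from each library, the 3 counts of members were 44, 66 and 74. These are 56.4, 84.6 and 94.9 percent, against 38.3, 41.3 and 42.5 percent of all genes tested. Results below are therefore also given without these libraries where that changes them.

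**Figure D1:**
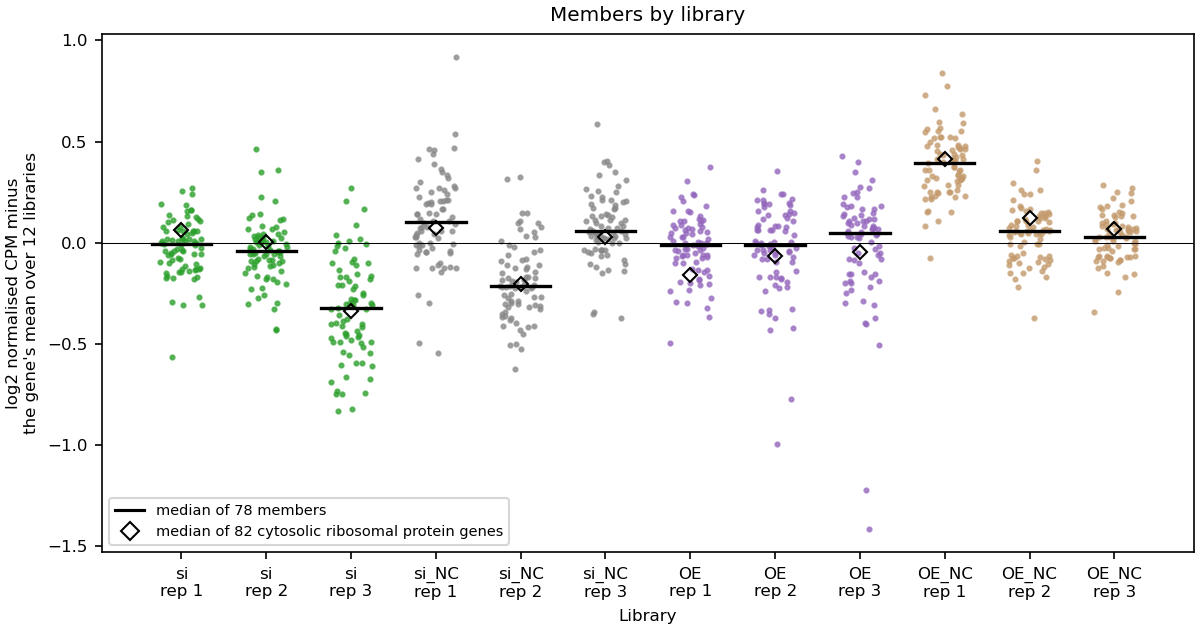
Deviation of each of the 78 members in each library (points), as log2 normalised CPM minus the gene's mean over the 12 libraries. Lines mark the median of the members and diamonds the median of 82 cytosolic ribosomal protein genes. The medians of si replicate 3, si_NC replicate 2 and OE_NC replicate 1 lie at -0.32, -0.21 and 0.40.

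Levels were compared between genes as RPKM, read counts scaled to exon length and to the library total. The mean over the 12 libraries ran from 3.17 RPKM for MRPS2 to 203 RPKM for MRPS5, a ratio of 63.9. The median member stood at 21.6 RPKM. Of the 78, 63 averaged above 10 RPKM and 6 under 5 RPKM, and the smallest count of any member in any library was 49.

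MRPS5, a small subunit protein near the entry channel for messenger RNA, was the most abundant member, at 184 ± 21.6 RPKM in si, 227 ± 31.3 in si_NC, 192 ± 2.03 in OE and 208 ± 28.0 in OE_NC (mean ± SD, n = 3 each). MRPS5 stood 2.12 times above the next member, and its lowest library, at 159 RPKM, was above the highest library of every other member. MRPL23, a protein at the exit tunnel for the new peptide, followed at 95.6 RPKM over all libraries. MRPS22, a small subunit protein specific to mitochondria, stood at 88.3 RPKM, MRPL20, which binds the large ribosomal RNA early in assembly, at 81.6 RPKM, and MRPL39, a large subunit protein specific to mitochondria, at 68.7 RPKM. The ranges of these 4 over the libraries overlap, so their order is not resolved by the spread. Together these 5 held 22.6 percent of the members' summed RPKM.

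At the low end stood MRPL10 (3.90 RPKM), which anchors the stalk that recruits translation factors, MRPL57 (3.86 RPKM), a small protein of the large subunit, MRPS24 (3.68 RPKM), the counterpart of bacterial S3, MRPS12 (3.30 RPKM), a protein of the decoding centre, and MRPS2 (3.17 RPKM), the counterpart of bacterial S2. Their ranges overlap as well. MRPS2 and MRPS5, the extremes of the set, are both small subunit proteins, so that levels of transcripts for partners in one particle differed widely. By role the median was 21.7 RPKM for large subunit proteins with a bacterial counterpart, 16.6 for large subunit proteins specific to mitochondria, 20.2 for small subunit proteins with a bacterial counterpart and 28.2 for small subunit proteins specific to mitochondria.

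**Figure D2:**
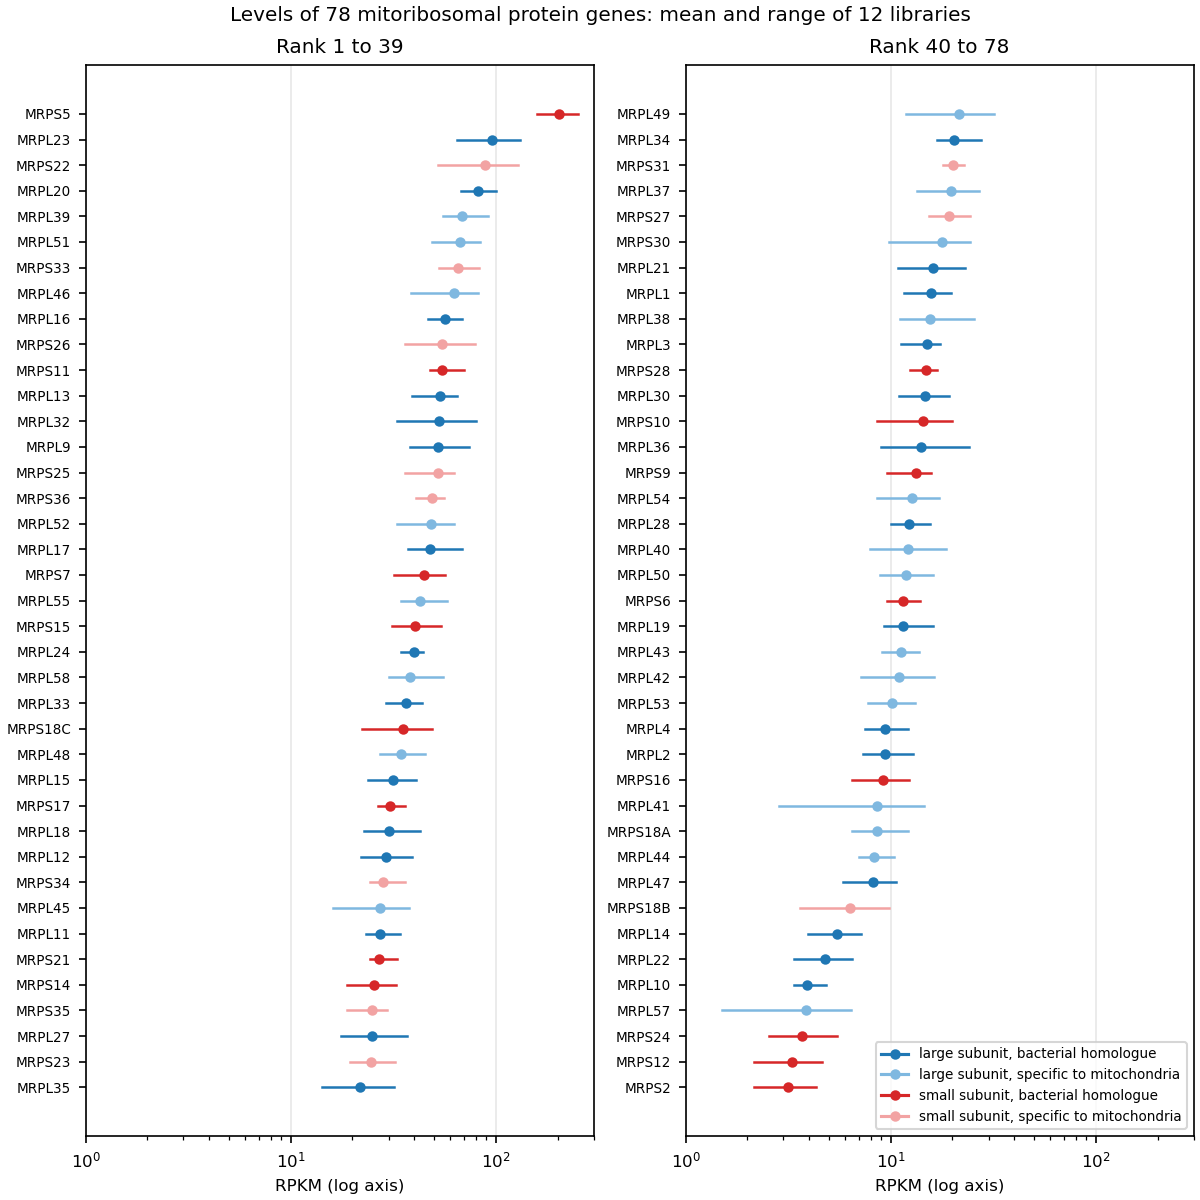
Mean (point) and range (line) over 12 libraries of the RPKM of each member, on a log axis, ordered by mean and coloured by role. MRPS5 stands alone at 203 RPKM, and 6 members average under 5 RPKM.

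Taken as a whole, the members held 0.288, 0.284 and 0.227 percent of gene counts in the si libraries and 0.307, 0.253 and 0.305 percent in si_NC. In OE they held 0.287, 0.286 and 0.295 percent, and in OE_NC 0.379, 0.304 and 0.298 percent. The low libraries of si and si_NC and the high library of OE_NC are those named above, and si and si_NC overlap. By these percentages each OE library lies below each OE_NC library, with replicate 3 of both groups nearly equal. By summed TMM-scaled CPM, the scale of the tests below, the groups overlap, at 2901, 2916 and 2964 in OE against 3721, 2933 and 2893 in OE_NC. In bulk RNA, fewer cells of a type and less RNA per cell cannot be told apart.

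By gene structure the members are short. Their exons summed to between 428 bases (MRPS36) and 7050 bases (MRPS18A), with a median of 1118.5 against 2923 bases for all genes tested. They lie on 27 chromosomes, with 9 on chromosome 11 and 8 on chromosome 19. For 22 members (28.2 percent, against 15.3 percent of genes tested) the nearest gene on the opposite strand starts within 1000 bases upstream. MRPL46 and MRPS11 are such a pair with each other, 41 bases apart on chromosome 21. Of the members, 13 share exon bases with another gene, 6 of them with a gene of more counts (MRPL47 with ACTL6A, MRPL55 with GUK1, MRPL57 with ZDHHC20, MRPS12 with SARS2, MRPL27 with EME1 and MRPL2 with KLC4). Their values are less certain, since the strand setting of the counting is not given in the sources used here.

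In the interference experiment 1 member, MRPL48, fell and 0 rose, in edgeR's quasi-likelihood test at an adjusted p of 0.05. Of all genes tested 2.54 percent passed (0.92 percent higher, 1.62 percent lower), so at this threshold the members' share is not above that of genes at large. At an unadjusted p under 0.05 edgeR gave 1 member higher and 15 lower, against 9.03 and 9.88 percent of all genes. The Wald test of DESeq2 called 1 member higher and 8 lower, against 2.11 and 4.79 percent of all genes (6.9 percent in all). At the unadjusted p and by the Wald test, the share of members lower was thus above that of all genes. The share higher was below it. The values of the 2 groups did not overlap for 2 members higher in si and 11 lower, against 10.2 and 10.6 percent of all genes.

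The shift of the members as a set was small and negative. The median log2 change was -0.12, against 0.02 for all genes tested, and 64 of the 78 values were negative (82.1 percent, against 46 percent of all genes). The 4 role groups had medians of -0.12 (29 genes), -0.09 (22), -0.08 (16) and -0.17 (11), in the order given at the start. Without si replicate 3 the median of the members was -0.03, without si replicate 1 it was -0.18, without si_NC replicate 1 it was -0.07 and without si_NC replicate 2 it was -0.20. Without si replicate 3 and si_NC replicate 2 together, a setting chosen after seeing the data, it was -0.11, and 7 members passed, against 6.7 percent of all genes. Of these 7, MRPS12 was higher in si. With the trend on gene length removed from each library the median was -0.21, against -0.04 for all genes, and 0 members were called higher and 13 lower, against 1.07 and 5.63 percent of all genes. Scaling by library totals moved the median of all genes to 0.10 and that of the members to -0.04, and turned the calls over all genes from 150 higher and 264 lower into 298 higher and 106 lower.

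MRPL48 encodes a protein of the central protuberance, the part of the large subunit that contacts the small subunit and the transfer RNAs (chromosome 15, 53278837 to 53333967, 8 exon blocks). It stood at 41.2, 43.4 and 43.3 CPM in si against 61.8, 55.5 and 58.8 CPM in si_NC, scaled by the trimmed mean of M-values (TMM), as are all CPM of single genes from here on. All si libraries lie in a narrow band well under all si_NC libraries, and si replicate 3 is not the lowest of its group. MRPL48 fell by 0.46 ± 0.08 on the log2 scale (SE, edgeR adjusted p = 0.0132). The call ended without si replicate 1 (adjusted p = 0.0701), si replicate 2 (0.0611) or si_NC replicate 1 (0.0797), and in a fit of the 6 libraries of this experiment alone (0.0823).

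Among the members that missed the threshold, MRPL46 and MRPL54 had larger changes than MRPL48. MRPL46, also of the central protuberance, had 49.3, 48.2 and 37.6 CPM in si against 77.3, 48.6 and 71.0 CPM in si_NC (log2 change -0.54 ± 0.16, edgeR adjusted p = 0.0806). Replicate 2 of si_NC lies within the range of si, and replicates 1 and 3 lie well above it. Its opposite-strand neighbour MRPS11, a small subunit protein named here for that position and after its values were seen, had a log2 change of -0.21 ± 0.11 (edgeR adjusted p = 0.303).

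MRPL54, a large subunit protein near the stalk, had 15.4, 16.9 and 16.4 CPM in si against 27.2, 18.6 and 25.1 CPM in si_NC (log2 change -0.54 ± 0.14, edgeR adjusted p = 0.0546). The groups do not overlap, and si_NC replicate 2 is again the control library nearest to si. MRPL32, a large subunit protein that must be cleaved by a protease of the inner membrane before it joins the ribosome, had 31.9, 32.7 and 24.8 CPM in si against 45.1, 34.1 and 42.7 CPM in si_NC (log2 change -0.45 ± 0.14, edgeR adjusted p = 0.103). These groups are apart as well, by less than 2 CPM at the nearest pair. Without si_NC replicate 2, the members called numbered 11, against 6.45 percent of all genes, and MRPL46, MRPL54 and MRPL32 were among them.

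MRPL36, a very small protein of the large subunit, had 11.1, 12.2 and 7.73 CPM in si against 22.2, 10.4 and 9.21 CPM in si_NC (log2 change -0.43 ± 0.26, edgeR adjusted p = 0.387). A single control library, si_NC replicate 1, lies above the rest, and without it the log2 change was 0.08 (adjusted p = 0.895). MRPS12 was the member with the largest positive value, at 4.57, 4.84 and 3.08 CPM in si against 2.65, 3.80 and 2.94 CPM in si_NC (log2 change 0.42 ± 0.20, edgeR adjusted p = 0.270). Its groups overlap, and 3 of its exon bases are shared with SARS2, which had more counts. MRPS12 passed, as higher, in 1 of 17 alternatives (edgeR adjusted p = 0.0299). That was the setting without si replicate 3 and si_NC replicate 2 together, chosen after seeing the data.

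In the overexpression experiment 3 members fell and 0 rose: MRPL41, MRPS16 and MRPL14. Of all genes tested 4.47 percent passed (2.22 percent higher, 2.25 percent lower). The members' 3 of 78 is close to the share in either direction, but all 3 were lower. At an unadjusted p under 0.05 edgeR gave 1 member higher and 17 lower, against 11.1 and 11.8 percent of all genes, and the Wald test of DESeq2 called 0 higher and 7 lower. By that test 4.73 percent of all genes were higher and 4.72 percent lower, 9.45 percent in all. The members' 7 of 78 is near the share in either direction. All 7 were lower, which as a share is above the 4.72 percent of all genes. The groups did not overlap for 0 members higher in OE and 19 lower, against 17.4 and 16 percent of all genes.

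As in the interference experiment, most values were negative. The median log2 change was -0.16, against -0.005 for all genes tested, and 66 of the 78 values were negative (84.6 percent, against 50.7 percent of all genes). The medians of the 4 role groups were -0.19, -0.15, -0.15 and -0.12, in the same order. Without OE_NC replicate 1, the library in which 77 members were the highest of their group, the median of the members was -0.04 and 0 members passed, against 0.269 percent of all genes. It was -0.23 without OE_NC replicate 2 and -0.24 without OE_NC replicate 3. With the trend on gene length removed from each library the median was 0.03, against 0.02 for all genes, and 3 members (MRPL13, MRPL23 and MRPL48) were then called higher and 1 (MRPL14) lower, while the calls over all genes went from 362 higher and 366 lower to 393 and 146 (2.41 and 0.896 percent). Scaling by library totals gave 159 and 653. The median of the set in this experiment thus depended on 1 library for its size and on the treatment of gene length for its sign. Across all genes tested the log2 change increased with exon length (Spearman rho = 0.347 across genes, which are not independent, all from the same 6 libraries). Across the 78 members rho was 0.184.

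MRPL41 encodes a large subunit protein specific to mitochondria and is the only member with a single exon block (chromosome 11, 106520891 to 106521531). It stood at 4.13, 2.51 and 1.85 CPM in OE against 9.16, 5.31 and 4.51 CPM in OE_NC, from 60 to 336 counts per library over the series. Every OE library is below every OE_NC library, but OE replicate 1 is close to OE_NC replicate 3. MRPL41 fell by 1.15 ± 0.28 on the log2 scale (edgeR adjusted p = 0.0347). In si and si_NC it stood at 5.72 to 7.06 and 6.02 to 7.68 CPM, so that the OE libraries hold the 3 lowest values of the series. The call ended without OE replicate 2 (adjusted p = 0.145), OE replicate 3 (0.120), OE_NC replicate 1 (0.153) or OE_NC replicate 2 (0.0820), and with the length trend removed (0.0753).

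MRPS16, a small subunit protein whose loss in humans causes a fatal respiratory chain disease (chromosome 28, 29296801 to 29298632), stood at 4.91, 5.75 and 5.39 CPM in OE against 8.24, 7.94 and 7.31 CPM in OE_NC. The control libraries are close together here, and OE_NC replicate 1 is only slightly above replicate 2. MRPS16 fell by 0.55 ± 0.13 on the log2 scale (edgeR adjusted p = 0.0328). Its call ended without any one of the 3 OE libraries, OE_NC replicate 1 or OE_NC replicate 2 (adjusted p from 0.0943 to 0.120), and with the length trend removed (0.23).

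MRPL14, which lies at the face where the subunits join and holds assembly factors that keep them apart (chromosome 23, 17644895 to 17659275), stood at 15.7, 15.2 and 18.0 CPM in OE against 23.9, 22.1 and 20.7 CPM in OE_NC. All OE libraries are below all OE_NC libraries. MRPL14 fell by 0.45 ± 0.10 on the log2 scale (edgeR adjusted p = 0.0259). This call, too, ended without any one of the 3 OE libraries, OE_NC replicate 1 or OE_NC replicate 2 (adjusted p from 0.0545 to 0.130). It was the one of the 3 that was still called with the length trend removed.

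**Figure D3:**
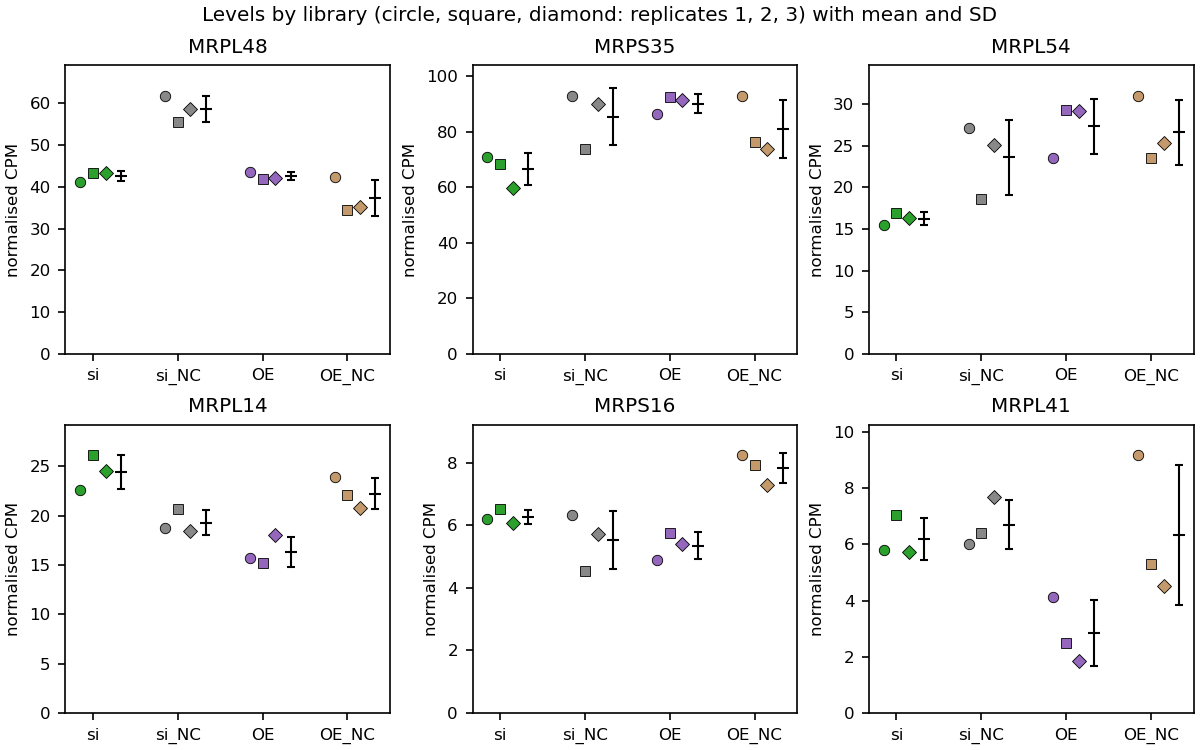
TMM-scaled CPM of 6 members in each library, from 0, with the mean and SD of each group of 3. MRPL48 is lower in si than in si_NC, MRPL14, MRPS16 and MRPL41 are lower in OE than in OE_NC, and the MRPL14 groups lie in opposite order in the 2 experiments.

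Of the members that missed the threshold, MRPL57 came nearest to MRPL41 in size, with 4.16, 2.14 and 1.54 CPM in OE against 6.44, 4.32 and 4.46 CPM in OE_NC (log2 change -0.95 ± 0.27, edgeR adjusted p = 0.0575). Replicate 1 of OE lies just under the controls and replicates 2 and 3 far under them, the same order as for MRPL41. Of its exon bases 49 are shared with ZDHHC20. Without OE replicate 1 it was among the 3 members called, with MRPL41 and MRPS25, where 1.34 percent of all genes passed. MRPS2 had 3.05, 3.42 and 3.33 CPM in OE against 5.73, 4.45 and 4.43 CPM in OE_NC (log2 change -0.58 ± 0.16, edgeR adjusted p = 0.0559), with no overlap.

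MRPL36 had 10.2, 9.26 and 10.1 CPM in OE against 16.9, 14.1 and 13.3 CPM in OE_NC (log2 change -0.58 ± 0.26, edgeR adjusted p = 0.187). MRPL40, of the central protuberance, had 10.2, 11.1 and 10.4 CPM in OE against 18.0, 15.3 and 12.3 CPM in OE_NC (log2 change -0.53 ± 0.23, edgeR adjusted p = 0.185). Neither pair of groups overlaps, and in both genes OE_NC replicate 1 is the highest. MRPL38, of the same structure, had 23.6, 18.5 and 15.7 CPM in OE against 34.6, 21.8 and 22.9 CPM in OE_NC, with overlapping groups (log2 change -0.46 ± 0.18, edgeR adjusted p = 0.145).

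The 2 experiments were compared by testing the difference between their changes, that of OE minus OE_NC less that of si minus si_NC. The change of 4 members differed, that of MRPL48 and MRPS35 toward higher values in the overexpression experiment and that of MRPL14 and MRPS16 toward lower. Of all genes tested 8.41 percent passed (4.29 percent higher, 4.12 percent lower), above the members' share. Over the whole set 52 members had negative changes in both experiments, 12 were negative in si and positive in OE, 14 were positive in si and negative in OE, and 0 were positive in both.

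MRPL14 differed by -0.79 ± 0.14 (log2, edgeR adjusted p = 0.00447). Its si libraries stood at 22.6, 26.1 and 24.5 CPM against 18.8, 20.7 and 18.4 CPM in si_NC, every one above the controls (log2 change 0.34 ± 0.10, edgeR adjusted p = 0.0739), whereas its OE libraries lay below theirs. MRPL48 differed by 0.65 ± 0.12 (log2, edgeR adjusted p = 0.00561). In OE it stood at 43.7, 41.8 and 42.2 CPM against 42.3, 34.4 and 35.2 CPM in OE_NC, with overlapping groups (log2 change 0.19 ± 0.08, edgeR adjusted p = 0.191). The levels of MRPL48 in si and OE were alike, at 42.6 ± 1.27 and 42.6 ± 0.97 CPM (mean ± SD, n = 3), while the controls stood at 58.7 ± 3.10 in si_NC and 37.3 ± 4.32 in OE_NC. Both genes passed in all 24 alternative analyses of the difference, the 12 that leave out a library included.

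MRPS16 differed by -0.73 ± 0.18 (log2, edgeR adjusted p = 0.0257). In si it stood at 6.20, 6.53 and 6.08 CPM against 6.35, 4.54 and 5.71 CPM in si_NC, with overlapping groups (log2 change 0.18 ± 0.13, edgeR adjusted p = 0.486). The difference passed in 18 of 24 alternatives. It did not pass without si replicate 1 (adjusted p = 0.0586), si replicate 2 (0.0697), OE replicate 1 (0.0680), OE replicate 3 (0.0542) or OE_NC replicate 2 (0.0612), or with the length trend removed (0.23).

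MRPS35, a small subunit protein specific to mitochondria (chromosome 5, 82080452 to 82132163), differed by 0.52 ± 0.15 (log2, edgeR adjusted p = 0.0432), with no call in either experiment alone. It stood at 70.8, 68.5 and 59.8 CPM in si against 92.7, 73.7 and 89.8 CPM in si_NC (log2 change -0.36 ± 0.10, edgeR adjusted p = 0.0767), and at 86.2, 92.5 and 91.4 CPM in OE against 92.7, 76.2 and 73.8 CPM in OE_NC (log2 change 0.15 ± 0.10, edgeR adjusted p = 0.399). The si libraries are below their controls, and the OE libraries overlap theirs, with OE_NC replicate 1 the highest of the 6. It passed in 10 of 24 alternatives and in 2 of the 12 that leave out a library, those without si_NC replicate 2 and without OE_NC replicate 1, with adjusted p up to 0.122 in the others.

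**Figure D4:**
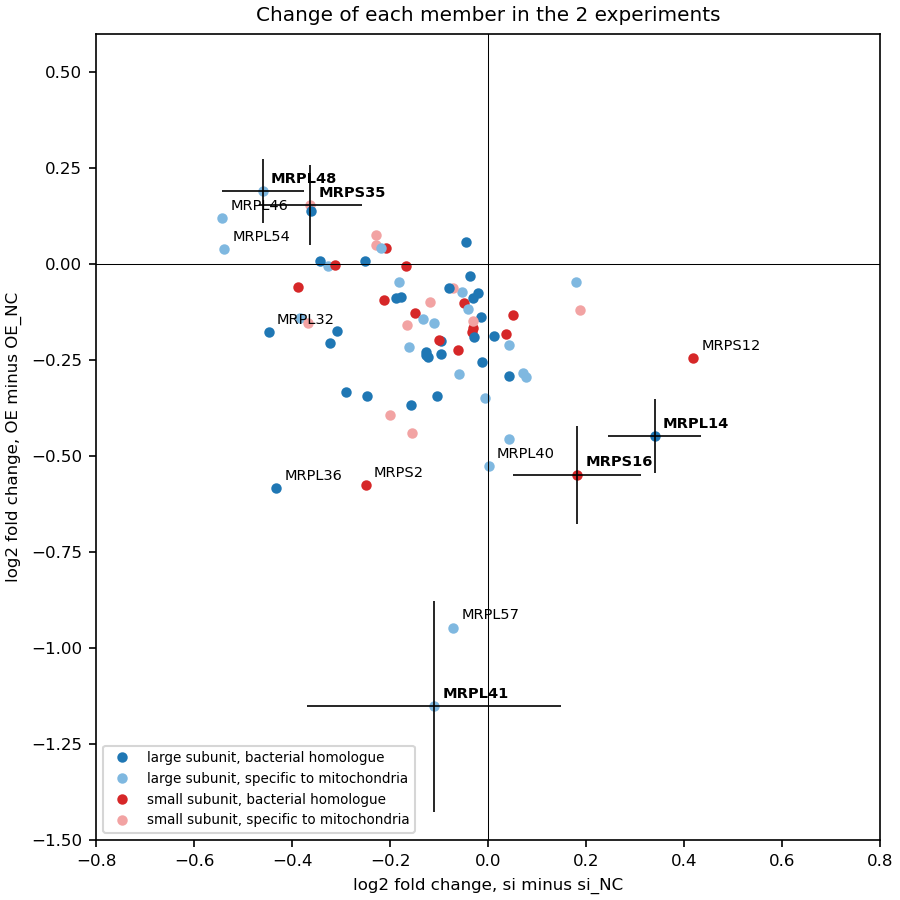
Log2 fold change of each member in the interference experiment (horizontal) and the overexpression experiment (vertical), coloured by role. Bold names passed in at least 1 of the 3 tests and carry their SE in both directions, and 52 of the 78 points lie in the lower left quadrant.

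The median difference over the 78 members was -0.07, against -0.02 for all genes tested, and 47 values were negative (60.3 percent, against 52.6 percent of all genes). It changed sign without si_NC replicate 2 (0.02), without OE_NC replicate 1 (0.05) and with the length trend removed (0.21). In that last setting the median of all genes was 0.06. It was 0.04 without si replicate 3, si_NC replicate 2 and OE_NC replicate 1 together, a setting chosen after seeing the data in which 24 members passed, 19 higher and 5 lower, against 11.6 and 8.89 percent of all genes. The number of members called was 2 without si replicate 1, si replicate 2, OE replicate 3 or OE_NC replicate 2, where 3.61, 3.7, 4.93 and 3.53 percent of all genes passed. It was 7 without si replicate 3 or OE_NC replicate 1, where 12.8 and 6.7 percent passed. With the length trend removed 17 members passed toward higher values and 1 toward lower, and the calls over all genes went from 700 higher and 671 lower to 1365 and 447, 8.37 and 2.74 percent of those tested. Library totals, which moved the median of all genes to -0.16 and that of the members to -0.20, gave 265 and 1269.

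The other genes of mitochondrial translation were described from lists, with the number called out of the number tested. Of 5 mitoribosomal proteins with other names, 0 passed in either experiment in edgeR (at an unadjusted p under 0.05, 1 lower in each; by the Wald test of DESeq2, 1 lower in si and 0 in OE). The most abundant of them, CHCHD1, a small subunit protein, had a log2 change of -0.31 ± 0.10 in si (edgeR adjusted p = 0.108) and 0.14 ± 0.10 in OE (0.414).

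Of 25 factors that assemble the mitoribosome, 2 fell in si and 0 passed in OE (there 1 higher at an unadjusted p under 0.05 and 1 higher by DESeq2). Of all genes tested 1.62 percent fell in si. MRM2, which methylates the large ribosomal RNA, stood at 13.0, 13.1 and 12.0 CPM in si against 18.9, 17.8 and 17.8 CPM in si_NC. The groups are far apart for their spread, and MRM2 fell by 0.51 ± 0.11 on the log2 scale (edgeR adjusted p = 0.0232). It shares 44 exon bases with NUDT1 on the opposite strand. RBFA, which binds the small ribosomal RNA late in its maturation, stood at 32.4, 32.5 and 38.8 CPM in si against 46.4, 43.7 and 41.6 CPM in si_NC. Its si replicate 3 is the highest of the si libraries, unlike in most members. RBFA fell by 0.35 ± 0.08 on the log2 scale (edgeR adjusted p = 0.0423). Both calls ended without si replicate 1, si replicate 2, si_NC replicate 1 or si_NC replicate 3 and in a fit of the 6 libraries alone (adjusted p from 0.0598 to 0.108 for MRM2 and from 0.0669 to 0.192 for RBFA), and that of RBFA also with library totals (0.0938), with the replicate block (0.0521) and by limma on log2 RPKM (0.0851 with 1 added, 0.0865 with 0.1).

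MRM2 and RBFA also differed between the experiments, by 0.63 ± 0.15 (edgeR adjusted p = 0.0206) and 0.64 ± 0.12 (0.00585). Their difference was not examined in the alternative analyses, so its dependence on single libraries is not known. In OE, MRM2 stood at 15.6, 15.6 and 15 CPM against 16.8, 12.2 and 13.7 CPM in OE_NC, with overlap. RBFA stood at 45.4, 44.7 and 44.2 CPM in OE against 36.8, 34.4 and 38.0 CPM in OE_NC, every OE library above the controls (log2 change 0.30 ± 0.08, edgeR adjusted p = 0.0562). The order of the RBFA groups is thus reversed between the experiments, and OE_NC replicate 1 lies within its group.

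Of 15 translation factors tested, 17 mitochondrial aminoacyl-tRNA synthetases, 8 genes of mitochondrial DNA transcription or replication and 9 regulators of mitochondrial biogenesis, 0 passed in either experiment in edgeR. At an unadjusted p under 0.05 these lists had 4, 3, 2 and 1 lower and 0, 0, 0 and 1 higher in si, and 2, 0, 1 and 0 lower and 1, 0, 1 and 0 higher in OE. The Wald test of DESeq2 called 1 translation factor lower in each experiment and 1 gene of mitochondrial DNA transcription or replication lower in OE. SLIRP, which stabilises mitochondrial messenger RNA, had log2 changes of -0.08 ± 0.16 in si and -0.21 ± 0.16 in OE, and IARS2, the isoleucyl-tRNA synthetase, -0.01 ± 0.08 and 0.12 ± 0.08. TWNK, the helicase of mitochondrial DNA, had -0.18 ± 0.09 and -0.04 ± 0.09, and GABPA, a transcription factor of nuclear genes for mitochondria, -0.24 ± 0.08 and 0.03 ± 0.08.

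Of the 13 messenger RNAs that mitoribosomes translate, 8 rose and 0 fell in si (median log2 change 0.31), and 9 fell and 0 rose in OE (median -0.37). Of all genes tested 0.92 percent rose in si and 2.25 percent fell in OE. With the length trend removed 1 of the 13 rose in si and 1 fell in OE, against 1.07 and 0.896 percent of all genes. The numbers of the 13 called were 1 to 8 on leaving out a si or si_NC library, lowest without si_NC replicate 1, and 1 to 10 on leaving out an OE or OE_NC library, lowest without OE replicate 2 or OE replicate 3. Over all genes, leaving out 1 library gave 56 to 1083 calls in si and 19 to 758 in OE. Of the 82 cytosolic ribosomal protein genes tested, 0 passed in si (2 higher and 11 lower at an unadjusted p under 0.05, 0 by DESeq2) and 16 fell in OE, with medians of -0.06 and -0.29. That count was 0 to 2 without OE_NC replicate 1, OE_NC replicate 2 or any one of the OE libraries, 28 without OE_NC replicate 3, and 2 with the length trend removed. The part of the libraries that stand apart, and of gene length, in the members' changes was not tested beyond these values.

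**Figure D5:**
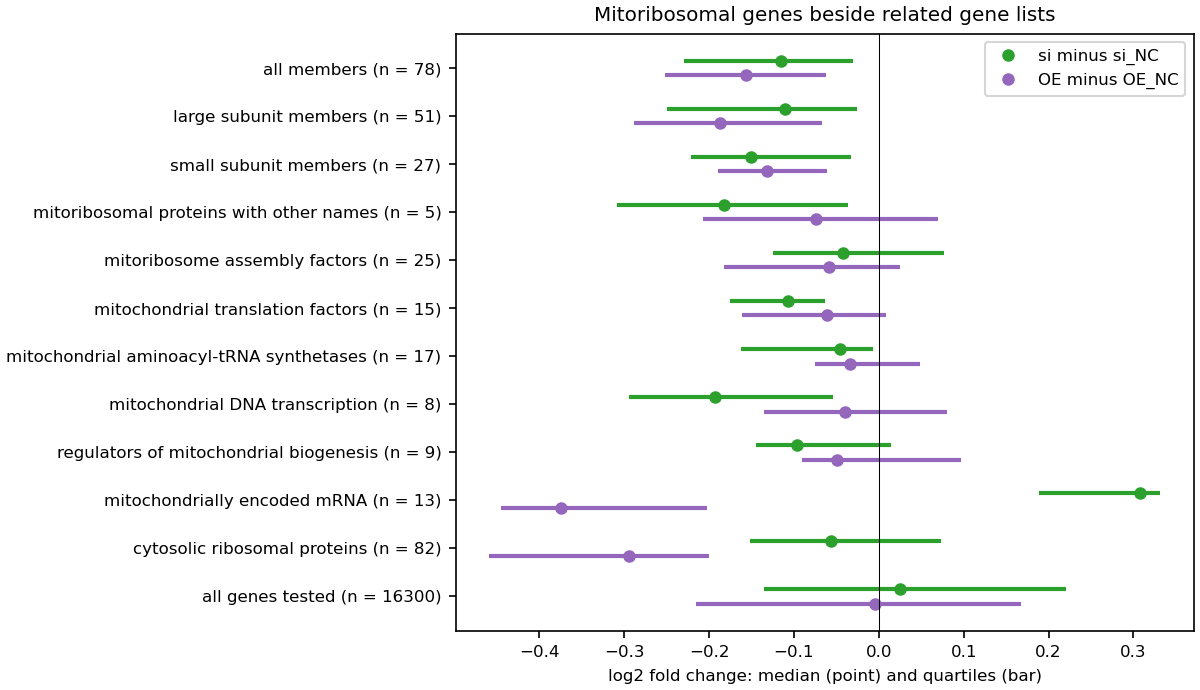
Median (point) and quartiles (bar) of the log2 fold change of the members and of related lists in both experiments. The members lie at -0.12 and -0.16, the mitochondrially encoded messenger RNAs at 0.31 and -0.37, and the cytosolic ribosomal protein genes at -0.06 and -0.29.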

How the data were processed

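The deposited values are read counts for each gene, unnormalised, and RPKM, which the authors made from those counts, the exon lengths and the column totals. Per the labels, polyadenylated RNA was made into stranded libraries. The tools named in the submitters' processing notes are fastp 0.23.0, featureCounts and Subread 1.5.1. For the aligner, the build and the strand setting, nothing is given in the sources used here. Of the columns with values per library, 0 were left unmapped. A further 2 entries that name no gene, with 0.0868 to 0.116 percent of counts, were left out. Coordinates are those of the count table, and chromosome names were matched through a RefSeq gene table (ARS-UCD2.0), where all 78 members were found by symbol.

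The members, the lists and the rule for naming genes were chosen with earlier results of these data known. The test of the counts was that of edgeR 4.0.16 (R 4.3.3): filterByExpr (minimum count 10, minimum total 15), TMM scaling, and the quasi-likelihood F test in 1 fit of the 12 libraries and 4 group means (residual degrees of freedom 8). Benjamini-Hochberg adjustment ran over 16300 genes with a threshold of 0.05, and genes past it are said to pass, be called, rise or fall. A standard error is the size of the log2 change over the square root of its F. Named genes are every member called in a contrast, the 5 others with the largest changes in each experiment, the 5 highest and 5 lowest by RPKM, and up to 4 called genes of each list or its most abundant gene. Messenger RNAs of mitochondrial DNA and cytosolic ribosomal proteins are given by counts only. Of 16 translation factors listed, 1 was not matched.

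Alternatives were DESeq2 1.42.0 (size factors, and its Wald test), library totals, no filter, a filter of 5 CPM in 3 libraries, the compared groups alone, limma 3.58.1 on log2 RPKM with 1 or 0.1 added, halved counts (66.2 to 69.3 percent of counts were even), a spline offset (4 degrees of freedom) for the trend on exon length, the replicate number as a block, and leaving out each library. The procedure was tested on simulated counts drawn independently for each gene. That simulation held no shift shared by many genes of 1 library, as seen here in 3 libraries, and so does not cover such shifts.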

Additional observations from a re-analysis of the deposited data

Results flagged for a closer look

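For 4 members the test of the difference between the 2 experiments passed (edgeR adjusted p under 0.05). MRPL48 (0.65) and MRPS35 (0.52) changed toward higher values in the overexpression experiment relative to the interference experiment, and MRPL14 (-0.79) and MRPS16 (-0.73) toward lower (log2). The same test passed for the assembly factors MRM2 (0.63) and RBFA (0.64). Unlike that of the 4 members, the difference of MRM2 and RBFA was not examined in the alternative analyses. For MRPL14 and RBFA the libraries of each treated group lay on opposite sides of their controls in the 2 experiments.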

How the results depend on the processing

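The members called in si numbered 2 with DESeq2 size factors, library totals or the 5 CPM filter, 9 by the Wald test of DESeq2, 14 with no filter, 0 with the groups compared alone and 13 with the length trend removed. In OE they numbered 7 with library totals, the Wald test or the groups compared alone, 13 with no filter, 5 by limma with either addend and 6 with halved counts. For the difference they numbered 9 with no filter and 18 with the length trend removed. Leaving out 1 library gave 0 to 11 members in si, 0 to 4 in OE and 2 to 7 for the difference, and medians of -0.20 to -0.03, -0.24 to -0.04 and -0.17 to 0.050. With the length trend removed the median changed sign in OE (0.026) and for the difference (0.21), where the medians of all genes were 0.022 and 0.060. The log2 change of MRPL36 in si ran from -0.67 to 0.076 on leaving out 1 library. Genes called in si numbered 414 in the main fit (2.54 percent), 1125 by the Wald test (6.9 percent) and 1208 with no filter. They numbered 8 with the groups alone and 1093 with the length trend removed. In OE they numbered 728 in the main fit (4.47 percent), 1541 by the Wald test (9.45 percent), 1679 with no filter and 1621 with the groups alone. The calls over all genes moved as well, so the member counts above are not read as a result about the members. No share of all genes is given here for DESeq2 size factors, the 5 CPM filter, limma or halved counts. None is given for the difference with no filter either. Leaving out 1 library gave 56 to 1083 genes in si, 19 to 758 in OE and 588 to 2152 for the difference. In a setting chosen after seeing the data, si replicate 3 and si_NC replicate 2 were left out together, which gave 1119 genes and 7 members in si and 2305 genes and 7 members for the difference. Leaving out OE_NC replicate 1 as well, also chosen after seeing the data, gave 3398 genes, 24 members and a median of 0.040. Fitting only the groups compared gives no fit of the difference and was not run for it. The same replicate numbers in paired groups correlated at 0.0921, -0.257 and -0.191 in si and 0.0446, -0.00999 and -0.0147 in OE. The highest value between any replicates was 0.332, for si replicate 3 with si_NC replicate 2. These values correlate deviations from group means of 3 libraries, so they cannot exclude a shared culture or day. Pairing by number was not assumed in the main fit. With the replicate block 396, 803 and 1247 genes and 1, 6 and 5 members passed. The causes of these shifts were not tested. Of 653 alternatives for single genes and lists, 496 kept direction and side of the threshold. Among members the counts were lowest for MRPS24 (49 to 131 per library), MRPL57 (50 to 236) and MRPL41 (60 to 336). With halved counts the 1, 3 and 4 members called in si, in OE and for the difference were still called. Halving keeps the relative values of each library and adds no sampling noise. It therefore cannot show what a lower depth would do, and depth was not varied otherwise.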

Other observations

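The 5 members with 1 or 2 exon blocks (MRPL34, MRPL36, MRPL41, MRPL50 and MRPL57) had negative log2 changes in both experiments, with medians of -0.29 in si and -0.58 in OE, while the 73 others had medians of -0.11 and -0.15. Among all genes tested, the 2719 with 1 or 2 exon blocks had medians of 0.17 in si and -0.27 in OE, and the other 13581 medians of 0.01 and 0.02. The split was chosen after the values were seen, and no test was run on it.

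For 22 members a gene on the opposite strand starts within 1000 bases, which makes 20 pairs with values for both genes. The log2 changes of a pair had the same sign in 12 of the 20 in si (60 percent) and in 9 of them in OE (45 percent), against 54.8 and 55 percent of the 1090 such pairs among all genes tested. The 2 members with the largest changes in OE, named here after their values were seen, had neighbours of the other sign. MRPL41 had -1.15 in OE where its neighbour PNPLA7, 213 bases away, had 0.25. MRPL57 had -0.95 where SKA3, 66 bases away, had 0.07. These values are log2 changes, given as a description.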
